A study of Mus musculus with 12 samples.

Results

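The genes described here are 10 mouse genes of the MHC class I pathway: the heavy chains H2-D1 and H2-K1, their light chain B2m, the peptide transporter subunits Tap1 and Tap2, the loading factor Tapbp, the immunoproteasome subunits Psmb8, Psmb9 and Psmb10, and the transactivator Nlrc5. They were listed by name, and all 10 were among the 15204 genes with a symbol in the table. Where a gene had several probe sets, the probe set with the strongest mean signal represents it. Expression was measured on 12 microarrays of amplified and biotin-labelled total RNA, 3 for each of 4 sources of mouse brain endothelial cells. The b.End5 group is described as an endothelioma line, made from brain endothelial cells transformed with polyoma middle T antigen. Its arrays would then be cultures of 1 line, but sex-linked transcripts differ between them, as given below. Co-cultured cells were primary brain microvascular endothelial cells grown for 5 days on filters, with mouse glia 3 weeks in culture in the well underneath and no contact between the layers. Single-cultured cells were grown for 5 days in the same way without glia. Non-cultured cells were freshly isolated and sorted with magnetic beads for the endothelial surface protein PECAM1. The labels mention the bead step for the non-cultured cells alone, so bead sorting and the absence of culture cannot be told apart in any comparison with that group. They give no strain, age or genotype, and do not say whether the replicates were separate preparations, so that each p-value reflects no more than array-to-array spread within this set of 12, which may be technical.

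Almost every nucleated cell displays peptides from its own proteins on MHC class I molecules, which CD8+ T cells read. Proteasomes cut the peptides, the TAP transporter carries them into the endoplasmic reticulum, and tapasin and its partners hold the empty heavy chain with B2m until a peptide fits. Interferon-gamma raises most of these genes together, through interferon-activated factors such as IRF1 and through NLRC5, which acts at a conserved promoter module made of the W/S, X1, X2 and Y boxes. On brain endothelium, class I molecules let CD8+ T cells recognise antigen at the blood-brain barrier.

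Promoter sequence from RefSeq (build GRCm38.p6) was available for 8 of the 10 genes. It is shown for 4 stretches because the members varied together across the arrays, as given later. The windows ran from 250 bases before to 50 after each start, both strands were searched, and capitals mark the letters found. These were TGACG, the letters of the X2 core, CCAAT, the letters of the Y box, whose other strand reads ATTGG, and the core of the interferon-stimulated response element, GAAA repeated after any 2 bases. A mark shows the letters alone, and whether they serve as such a box was not tested. Tap1 and Psmb9 lie head to head, with 225 bases between their starts, and the whole interval is printed (chr17:34187331-34187555, + strand). The other stretches are the 200 bases before the start of H2-K1 (chr17:34000348-34000547, - strand), H2-D1 (chr17:35262894-35263093, + strand) and B2m (chr2:122147487-122147686, + strand).
Psmb9 to Tap1: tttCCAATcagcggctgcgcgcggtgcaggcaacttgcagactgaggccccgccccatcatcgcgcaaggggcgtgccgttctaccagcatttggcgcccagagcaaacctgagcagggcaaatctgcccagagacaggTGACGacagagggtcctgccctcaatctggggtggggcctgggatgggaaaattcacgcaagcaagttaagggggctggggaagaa
H2-K1: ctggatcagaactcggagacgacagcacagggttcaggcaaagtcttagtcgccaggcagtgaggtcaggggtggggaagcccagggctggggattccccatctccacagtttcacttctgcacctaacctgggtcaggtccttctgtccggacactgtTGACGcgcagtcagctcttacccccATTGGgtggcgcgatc
H2-D1: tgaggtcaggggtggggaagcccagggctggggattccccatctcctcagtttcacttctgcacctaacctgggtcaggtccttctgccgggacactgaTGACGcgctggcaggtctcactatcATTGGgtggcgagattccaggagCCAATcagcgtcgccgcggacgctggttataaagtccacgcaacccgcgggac
B2m: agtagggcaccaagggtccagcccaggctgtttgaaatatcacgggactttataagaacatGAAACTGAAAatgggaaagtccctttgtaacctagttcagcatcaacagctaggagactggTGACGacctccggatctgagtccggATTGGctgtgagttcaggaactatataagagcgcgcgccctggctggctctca
Of the 8 genes with a window, only H2-K1, H2-D1 and B2m have the TGACG letters followed, after 20 bases, by ATTGG. This arrangement was read from these genes and then counted: 31 of 32851 windows (0.0944%) hold it, at 27 genes, 7 of them on chromosome 17. The CCAAT letters alone were in the windows of 6 of the 8 members and in 37.4% of all windows, and TGACG alone in those of 5 members and in 20.8% of all. The response element core was in the window of B2m and in 3.44% of all, and the gamma-activated site letters TTCNNNGAA in that of Psmb8 and in 8.3% of all. Only these exact letters were searched. Elements that depart from them are not counted or marked, so a window without a match can still hold such an element. The windows of H2-K1 and H2-D1 share an identical run of 47 bases. Whether the probe sets of these 2 closely related genes tell their transcripts apart was not tested.

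Values are log2 intensities, so a difference of 1 is 2-fold. Probe sets without a target marked the floor of each array: the 95th percentile of 27 bacterial controls lay at 4.01 to 4.46, called the no-target level here, and all 10 genes lay above it on all 12 arrays. Array medians ran from 7.21 to 7.40. The 10 endothelial markers, such as Pecam1 and Cdh5, lay above the no-target level on every array, with means over the list of 12.35 to 12.40 in b.End5, 12.08 to 12.37 in co-cultured, 12.25 to 12.60 in single-cultured and 12.54 to 12.71 in non-cultured cells. Of these, Tek fell by 1.31 in co-culture and by 1.01 in single culture. Over 11 microglia and macrophage markers the list means were 4.42 to 4.85 in b.End5, 7.25 to 8.37 in co-cultured, 7.23 to 8.05 in single-cultured and 5.92 to 6.38 in non-cultured cells, and 6 of 11 rose in each primary culture against non-cultured cells. Lyz2 of macrophages rose by 3.49 (SE 0.27) in single culture, while Itgam stayed at the no-target level on 2 of 3 arrays of each primary culture and on all 3 non-cultured arrays. Of 7 pericyte markers 2 fell and 1 rose in co-culture and 3 fell in single culture, with Rgs5 at -4.26 and -5.79, of 5 fibroblast markers 2 rose in co-culture and 1 in single culture, and of 5 astrocyte markers 1 fell in each, Slc1a3. By the same 2-fold rule, given below, 6.2% of all genes fell and 9.1% rose in co-culture, and 5.82% fell and 7.18% rose in single culture. What these cell types contribute to the values of the 10 genes was not tested, and in bulk RNA fewer cells of a type and less RNA per cell cannot be told apart.

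One array stood apart. The array labelled b.End5 replicate 2 had 1106 and 1193 genes over 1 log2 unit from b.End5 replicates 1 and 3, which had 42 such genes between them. Its Xist value was 6.20, against 12.10 and 12.48 on the other b.End5 arrays, and the Y-linked transcripts Ddx3y (7.84) and Eif2s3y (9.24) were above the no-target level on that array alone. Whether it comes from the same line as replicates 1 and 3 was not tested. The calls of the 10 genes are therefore given with and without it. Values of other genes use all 12 arrays unless stated otherwise.

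**Figure D1:**
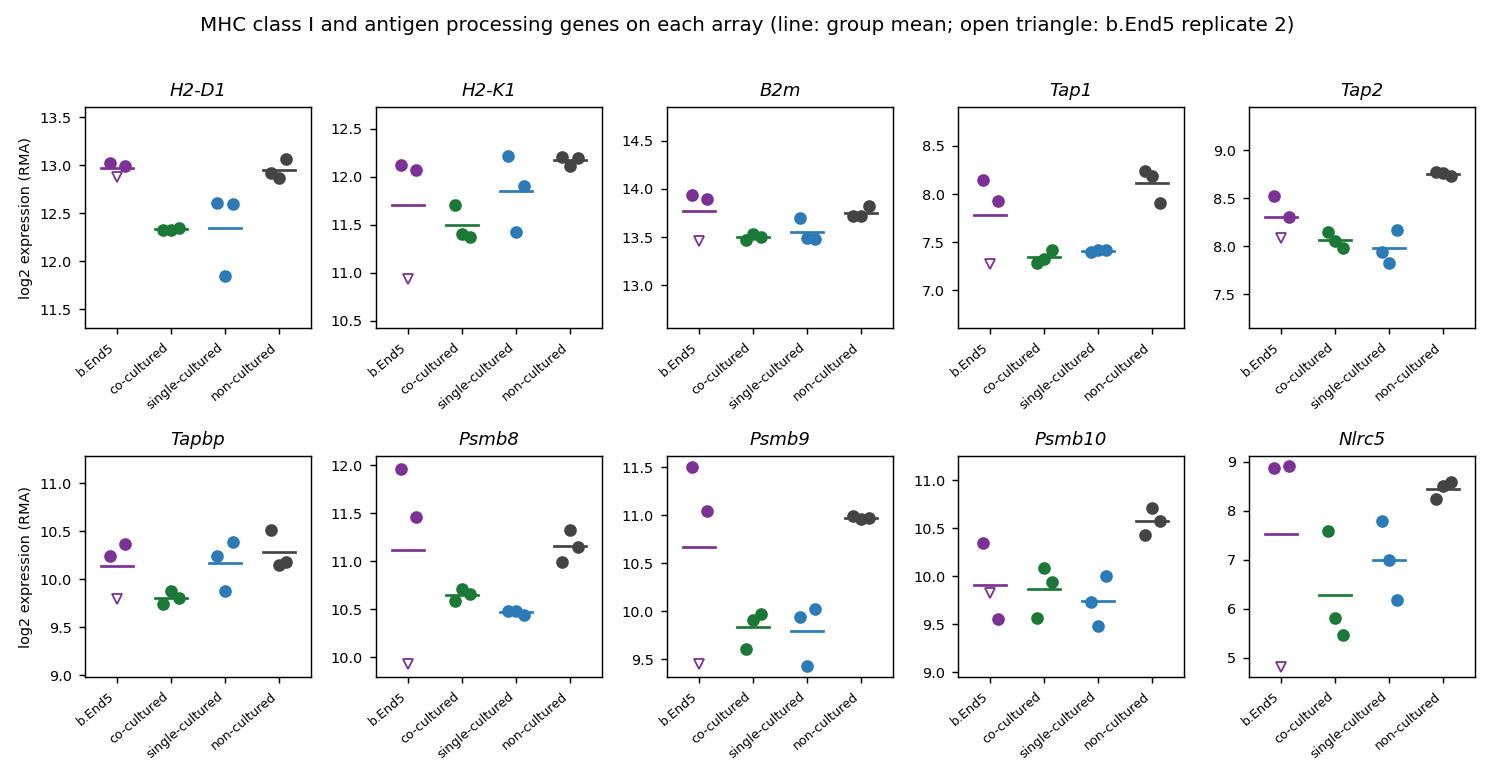
Log2 expression (RMA, vertical axis) of the 10 genes on each of the 12 arrays, by group, with a line at the group mean and an open triangle for the array labelled b.End5 replicate 2. The cultured arrays of Tap1, Tap2, Psmb9 and Psmb10 lie below all 3 non-cultured arrays, and the open triangle lies far below the other b.End5 arrays for Psmb8, Psmb9 and Nlrc5.

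After 5 days in culture the mean of each of the 10 genes was below that of freshly isolated cells, and 5 of the 10 passed the test when no minimum fold was set. All 10 differences of single-cultured minus non-cultured cells were negative, with a median of -0.69 against -0.0025 over all genes, and the same held in co-culture, with a median of -0.68 against -0.037. The differences were mostly under 2-fold. With limma, a gene was called when its Benjamini-Hochberg adjusted p over all genes was under 0.05 and its difference at least 2-fold. By that rule 1 of the 10, Psmb9, fell in each culture, while 5.82% of all genes fell and 7.18% rose in single culture, and 6.2% fell and 9.1% rose in co-culture. With no minimum fold, 5 of the 10 were lower in each culture, H2-D1, Tap1, Tap2, Psmb9 and Psmb10, against 12.8% of all genes in single culture and 15.7% in co-culture. The 3 cultured arrays lay below the 3 non-cultured ones for 8 members in single culture, where 21.2% of all genes did so, and for all 10 in co-culture, where 25.4% did. Both comparisons share the non-cultured arrays. Without b.End5 replicate 2, whose spread enters the common error, 7 members were lower in single culture and 9 in co-culture with no minimum fold (15.0% and 18.2% of all genes), and Nlrc5 joined Psmb9 among those that fell by at least 2-fold, where 6.14% and 6.44% of all genes did.

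The immunoproteasome subunits replace the standard catalytic subunits and change which peptides are cut. Psmb9, which takes the place of Psmb6, was at 9.61, 9.91 and 9.98 in co-cultured and at 9.94, 9.43 and 10.03 in single-cultured cells, against 10.99, 10.96 and 10.97 in non-cultured cells. The cultured values are about 1 log2 unit lower and do not reach the non-cultured ones. Psmb9 fell by 1.17 in single culture (SE 0.40, 2.26-fold, adjusted p = 0.0477) and by 1.14 in co-culture (SE 0.40, 2.21-fold, adjusted p = 0.0459). Both p-values lie close to the threshold. Leaving out 1 array put Psmb9 over it in 10 of 12 cases for single culture and in 9 of 12 for co-culture, while leaving out b.End5 replicate 2 gave 0.000356 and 0.00036.

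Psmb10, which replaces Psmb7, was at 9.57, 10.08 and 9.94 in co-cultured and 9.73, 9.48 and 10.002 in single-cultured cells, against 10.43, 10.71 and 10.57 in non-cultured cells. All 6 cultured arrays lie under the lowest non-cultured one. The difference was -0.83 in single culture (SE 0.21, adjusted p = 0.0117) and -0.71 in co-culture (SE 0.21, adjusted p = 0.0227). Psmb8, the counterpart of Psmb5, was at 10.58, 10.71 and 10.66 in co-cultured and 10.48, 10.48 and 10.44 in single-cultured cells, against 10.99, 11.33 and 11.14 in non-cultured cells. Its groups did not overlap either, but its differences of -0.69 in single culture and -0.50 in co-culture did not pass with all arrays (adjusted p = 0.219 and 0.349). Without b.End5 replicate 2 they did (adjusted p = 0.00255 in single culture and 0.0134 in co-culture).

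The standard subunits that these 3 replace had small positive differences. Psmb5, Psmb6 and Psmb7 had differences of 0.24, 0.16 and 0.10 in single culture and 0.51, 0.35 and 0.16 in co-culture, none past the test. Without b.End5 replicate 2, Psmb5 was higher in co-culture at an adjusted p of 0.0409. Of 12 measured genes of the standard proteasome core, 0 were called in either culture (limma). All 12 had positive differences in both, as had 7558 of all 15204 genes in single culture and 6971 in co-culture. At adjusted p, 3 of the 12 were higher in single culture and 5 in co-culture, against 15.5% and 18.7% of all genes. Without b.End5 replicate 2 these were 3 and 7 of the 12. The medians of the 12 differences were 0.25 and 0.38 with all arrays. Of 8 activator and assembly genes 1 was called, Psmg1 of core assembly, which rose by 1.04 (SE 0.15) in co-culture.

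TAP1 and TAP2 form the channel through which peptides enter the endoplasmic reticulum. Tap2 was at 8.14, 8.05 and 7.98 in co-cultured and 7.94, 7.82 and 8.17 in single-cultured cells, against 8.77, 8.77 and 8.73 in non-cultured cells. Tap1 was at 7.28, 7.33 and 7.42 in co-cultured and 7.39, 7.42 and 7.42 in single-cultured cells, against 8.24, 8.19 and 7.91 in non-cultured cells. Both genes separate the cultured from the non-cultured arrays with a wide gap. Tap2 had the smallest adjusted p of the 10 in each culture, with differences of -0.78 in single culture (SE 0.13, adjusted p = 0.000908) and -0.69 in co-culture (SE 0.13, adjusted p = 0.00163). For Tap1 the differences were -0.70 in single culture (SE 0.19, adjusted p = 0.0162) and -0.77 in co-culture (SE 0.19, adjusted p = 0.00811).

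Tapbp encodes tapasin, which bridges the transporter to the empty class I molecule. Its values ran from 9.75 to 9.87 in co-cultured, 9.88 to 10.39 in single-cultured and 10.15 to 10.52 in non-cultured cells. Single-cultured and non-cultured arrays overlapped (difference -0.11, adjusted p = 0.707), and the co-cultured difference of -0.47 did not pass with all arrays (adjusted p = 0.0601) but did without b.End5 replicate 2 (0.0258). The second Tapbp probe set had group means of 9.60 in co-cultured and 9.97 in single-cultured cells, against 10.08 in non-cultured cells, the same order.

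**Figure D2:**
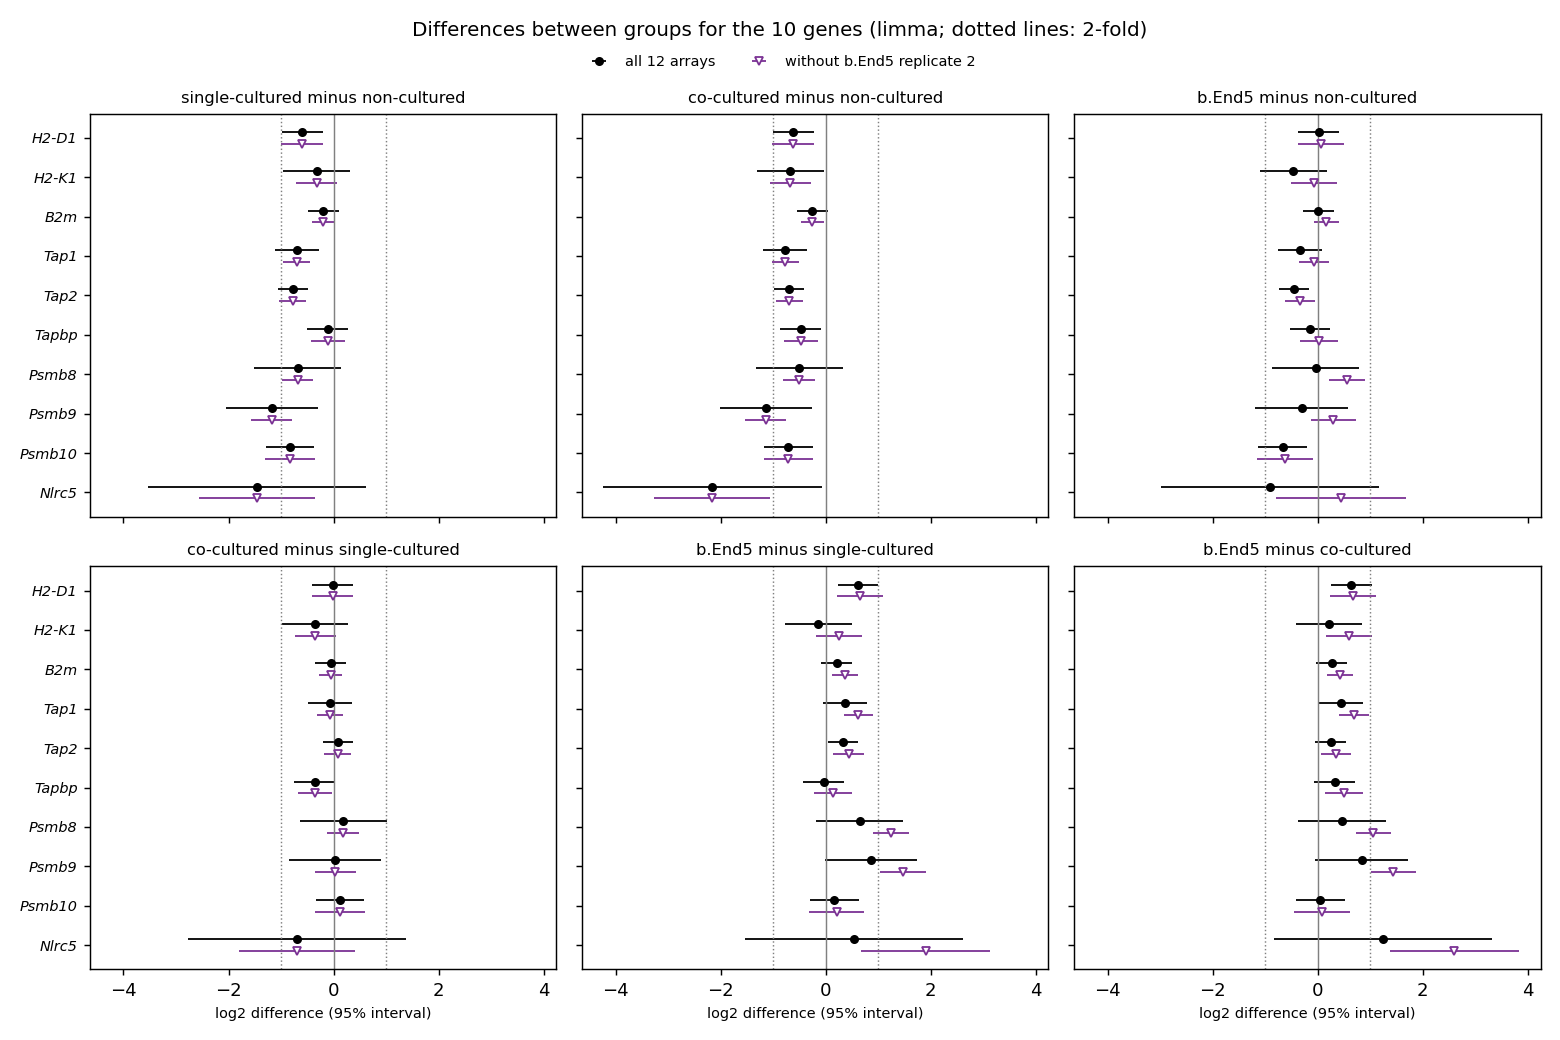
Log2 differences between groups (first minus second group, horizontal axis) for the 10 genes with 95% intervals from limma, with all 12 arrays (black circles) and without b.End5 replicate 2 (violet triangles), and dotted lines at a 2-fold difference. All 10 points lie left of 0 in single-cultured minus non-cultured and in co-cultured minus non-cultured cells, and without that array all 10 lie right of 0 in b.End5 minus each primary culture.

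Among the presenting molecules, H2-D1 was at 12.33, 12.33 and 12.35 in co-cultured and 12.61, 11.85 and 12.59 in single-cultured cells, against 12.92, 12.87 and 13.06 in non-cultured cells. Its groups did not overlap, and the differences were -0.60 in single culture (SE 0.18, adjusted p = 0.0255) and -0.62 in co-culture (SE 0.18, adjusted p = 0.0186). H2-K1 was at 11.71, 11.41 and 11.38 in co-cultured and 12.22, 11.43 and 11.90 in single-cultured cells, against 12.20, 12.11 and 12.20 in non-cultured cells. One single-cultured array thus reached the non-cultured level, with a difference of -0.32 (adjusted p = 0.47), whereas the co-cultured arrays all lay lower (difference -0.67, adjusted p = 0.0964, and 0.0107 without b.End5 replicate 2). B2m, the light chain shared by all class I molecules, had values of 13.47 to 13.53 in co-cultured, 13.47 to 13.70 in single-cultured and 13.72 to 13.82 in non-cultured cells and differences of -0.20 in single culture and -0.25 in co-culture that did not pass (adjusted p = 0.331 and 0.179). B2m values lie near the top of the log2 range of these arrays, and whether its probes were still responsive there was not tested.

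Nlrc5 is the transactivator that turns on class I genes. Its values were 7.59, 5.82 and 5.46 on the co-cultured arrays and 7.79, 6.999 and 6.17 in single culture, against 8.24, 8.50 and 8.58 in non-cultured cells. Every cultured array lay lower, but the cultured arrays spread widely within a group, with an SD of 1.14 in co-culture, 0.81 in single culture and 0.18 in non-cultured cells. The differences were the largest of the 10, at -1.45 in single culture (SE 0.95) and -2.15 in co-culture (SE 0.95), and neither passed with all arrays (adjusted p = 0.302 and 0.104). Both were called without b.End5 replicate 2 (adjusted p = 0.0454 and 0.0053), and with only the 2 groups compared in the fit.

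Between co-culture with glia and culture alone no difference in these genes passed the test. Of the 10, 0 were called in co-cultured against single-cultured cells (limma), while 0.901% of all genes were called higher and 0.289% lower. An unadjusted p under 0.05 was found for 0 of the 10, and for at least the 383 of 15204 genes that passed at adjusted p. The median difference was -0.038, and 4 of the 10 were positive. The 95% interval kept the difference within 2-fold for 8 members, as for Psmb9 (0.03, interval -0.85 to 0.91) and H2-D1 (-0.02, interval -0.41 to 0.37). It did not for Nlrc5 (-0.70, interval -2.78 to 1.38) or, narrowly, for Psmb8 (0.18, interval -0.65 to 1.02). Arrays of the 2 cultures did not overlap for Psmb8, which was higher in co-culture, and Tapbp, which was lower, where 9.4% and 10.5% of all genes were apart in these directions. Fibroblast markers differed between the same arrays, with Col1a1 at 10.22 in co-cultured against 7.72 in single-cultured cells (difference 2.50, adjusted p = 0.0265), and what these cells add to the 10 genes was not tested.

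In b.End5 cells most of the 10 genes stood near the non-cultured level on 2 arrays and lower on the array labelled replicate 2. With all arrays, 0 of the 10 were called in b.End5 against non-cultured cells (limma), where 9.1% of all genes were called higher and 9.06% lower. An unadjusted p under 0.05 was found for 2 of the 10, and for at least the 5774 of 15204 genes that passed at adjusted p. The 2 members were Tap2 (-0.45, adjusted p = 0.0187) and Psmb10 (-0.66, adjusted p = 0.0281). They are the members with a lower level at adjusted p with no minimum fold, where 16.7% of all genes are, and those for which all b.End5 arrays lay lower, as 21.1% of all genes did. Against the primary cultures 0 of the 10 were called as well, where 6.25% of all genes were called higher and 7.82% lower than in single-cultured cells, and 5.1% higher and 7.96% lower than in co-cultured cells. Of the 10, 2 had an unadjusted p under 0.05 against single-cultured and 2 against co-cultured cells. Of all 15204 genes, at least the 4591 and 4698 that passed at adjusted p did so too. H2-D1, at 13.02, 12.88 and 13.00 in b.End5, was higher than in single-cultured cells by 0.62 (SE 0.18, adjusted p = 0.0212) and than in co-cultured cells by 0.64 (SE 0.18, adjusted p = 0.0187), and its 3 b.End5 arrays lay above all 6 arrays of the primary cultures. It was the 1 member higher at adjusted p with no minimum fold, against 16.2% and 16.3% of all genes, and the 1 whose arrays did not overlap, against 23.2% and 26.0%.

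Of the other members, Nlrc5, Psmb8, Psmb9 and H2-K1 differed most among the b.End5 arrays. Psmb8 was at 11.96, 9.93 and 11.46 on replicates 1, 2 and 3, and Psmb9 at 11.50, 9.45 and 11.05. Nlrc5 was at 8.87, 4.81 and 8.91. For Psmb8, Psmb9, Nlrc5 and B2m, replicate 2 lay below every non-cultured array and the other b.End5 arrays above every one. H2-K1, at 12.13, 10.94 and 12.07, was lower on replicate 2 and close to the non-cultured values on the others. In the same order Tap1 was at 8.15, 7.27 and 7.93, Tap2 at 8.53, 8.09 and 8.30, Tapbp at 10.24, 9.80 and 10.37 and B2m at 13.94, 13.46 and 13.89, each lowest on replicate 2. Psmb10, at 10.34, 9.83 and 9.55, was lowest on replicate 3. All 10 members were lower on replicate 2 than the mean of replicates 1 and 3, by a median of 0.64 (difference -0.64, against 0.05 over all genes), and 4 were at least 1 log2 unit lower, as 4.29% of all genes were. The largest gap was that of Nlrc5 (-4.08), followed by Psmb9 (-1.82), Psmb8 (-1.79) and H2-K1 (-1.16), while this gap was small for H2-D1 (-0.13) and Psmb10 (-0.12).

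**Figure D3:**
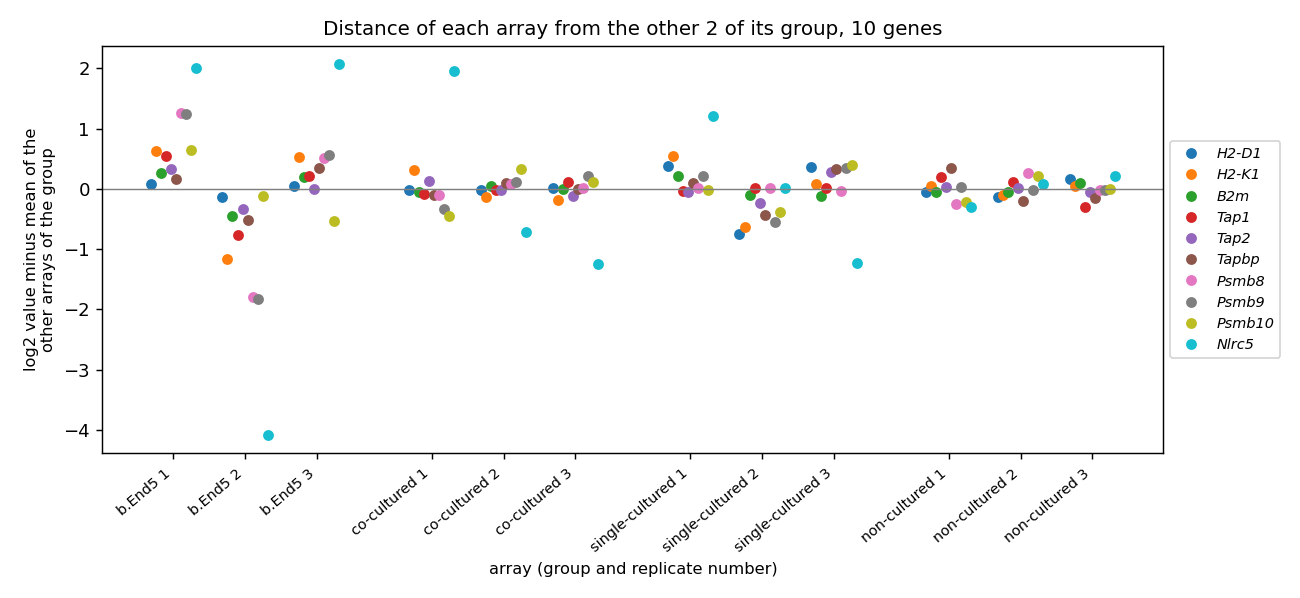
Log2 value of each of the 10 genes on each array minus the mean of the other 2 arrays of the same group (vertical axis), in colours by gene. On b.End5 replicate 2 all 10 points lie below 0, down to -4.08 for Nlrc5, while on the non-cultured arrays the points lie between -0.30 and 0.35.

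Without that array, b.End5 had 0 of 10 members called against non-cultured cells (9.64% of all genes called higher and 9.05% lower), and Psmb8 was higher by 0.56 (SE 0.15, adjusted p = 0.0136), the 1 member that was so with no minimum fold, against 21.8% of all genes. Tap2 and Psmb10 then missed the threshold (adjusted p = 0.0611 and 0.0615). Against the primary cultures, 3 members were called higher in each case, where 6.97% of all genes were called higher than in single-cultured and 5.77% higher than in co-cultured cells. Psmb8 was higher by 1.24 than in single-cultured and by 1.06 than in co-cultured cells (adjusted p = 8.81e-05 and 0.00031). Psmb9 was higher by 1.47 and 1.44 (adjusted p = 0.000161 and 0.000201), and Nlrc5 by 1.90 and 2.60 (adjusted p = 0.0227 and 0.00435). With no minimum fold, 7 members were higher than in single-cultured and 8 higher than in co-cultured cells, against 16.8% and 16.5% of all genes. Psmb10 passed against neither culture, with differences of 0.21 from single-cultured and 0.09 from co-cultured cells (adjusted p = 0.576 and 0.825).

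Over the 4 sources, with all 12 arrays, non-cultured cells had the highest mean for 8 members and b.End5 for H2-D1 and B2m. The lowest mean was that of co-cultured cells for 6 members and of single-cultured cells for 4. The 2 primary cultures were neighbours at the low end for 8 of the 10, and their arrays overlapped for 8 of the 10. Without b.End5 replicate 2, the b.End5 mean was above the non-cultured mean for 6 members and below it for 4. It was then above the mean of each primary culture for all 10. Values of the 10 genes correlated positively over all arrays, but correlation within groups was not tested. Relative to the mean of the other 2 arrays of the group, 5, 5 and 6 members were lower on non-cultured replicates 1, 2 and 3. These counts were 3, 7 and 3 in single-cultured, 7, 5 and 4 in co-cultured and 0, 10 and 2 in b.End5 cells. The share of positive pairs among all genes was not counted. Over the 12 arrays, which share the group differences and the deviating b.End5 array, Pearson's r was above 0 in all 45 pairs of members, from 0.32 to 0.94 with a median of 0.70. Without b.End5 replicate 2 it ran from 0.30 to 0.93. Tap1 and Psmb9, the head-to-head pair whose shared interval is printed above, had the highest value (0.935), Psmb8 and B2m were also closest to Psmb9 (0.919 and 0.910), and Nlrc5 was closest to H2-K1 (0.877) and, without b.End5 replicate 2, to B2m (0.846). Among the genes outside the group, those most like the mean of the 10 over the 12 arrays were Vsir, an immune checkpoint receptor (r = 0.967), Gbp7, a guanylate-binding protein induced by interferon (0.966), Nmi (0.959), Adar, an RNA-editing enzyme (0.951), and the zinc finger gene Zfp2 (0.95). Of these, Gbp7 (-1.58 in single culture and -1.73 in co-culture) and Adar (-1.01 and -1.30) fell, and the others did not pass the 2-fold rule. Zfp2 lay near the no-target level, with means of 4.18 in co-cultured and 4.42 in single-cultured cells, and under it on b.End5 replicate 2 (3.30). Members were centred but not scaled, so Nlrc5, with the widest range (4.10), weighs most in the mean of the 10.

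Other class I and class I-like genes were measured for 10 of 22 listed. In each culture 3 fell and 0 rose, where 5.82% of all genes fell and 7.18% rose in single culture, 6.2% and 9.1% in co-culture. Without b.End5 replicate 2, 1 also rose in each, the CD1 gene Cd1d1, at 7.57, 7.83 and 7.71 in co-cultured and 7.93, 8.19 and 8.03 in single-cultured cells, against 6.43, 6.55 and 6.62 in non-cultured cells. Among those that fell was H2-T24, a class I gene of the T region, at 8.43, 7.49 and 7.85 in co-cultured and 8.17, 7.84 and 7.88 in single-cultured cells, against 11.75, 11.60 and 11.37 in non-cultured cells. This is a 12.6-fold (difference -3.65, SE 0.21) and a 12.2-fold lower level (-3.61, SE 0.21), where the largest difference among the 10 members was the -2.15 of Nlrc5. H2-T23, which encodes the Qa-1 molecule that presents peptides to natural killer cell receptors, fell too (-1.92 and -1.82, SE 0.16), as did the neonatal Fc receptor Fcgrt (-2.39 and -2.31, SE 0.42). In b.End5, H2-T24 was at 12.00, 11.76 and 12.03, or 16.0-fold above co-cultured and 15.6-fold above single-cultured cells, and H2-T23 at 13.18, 12.50 and 13.05, or 4.13-fold and 3.86-fold above them. For H2-T24 replicate 2 was close to the other b.End5 arrays. For H2-T23 it was the lowest of the 3, below the non-cultured range of 12.70 to 12.88 but above all cultured arrays. The calls of both genes against the primary cultures held without it. Mr1, which presents vitamin B metabolites, separated that array again, at 9.25, 4.66 and 9.05 on b.End5 replicates 1, 2 and 3, against 8.22, 8.64 and 8.39 in non-cultured cells. Fcgrt did so in the other direction, at 10.74, 12.05 and 10.73.

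**Figure D4:**
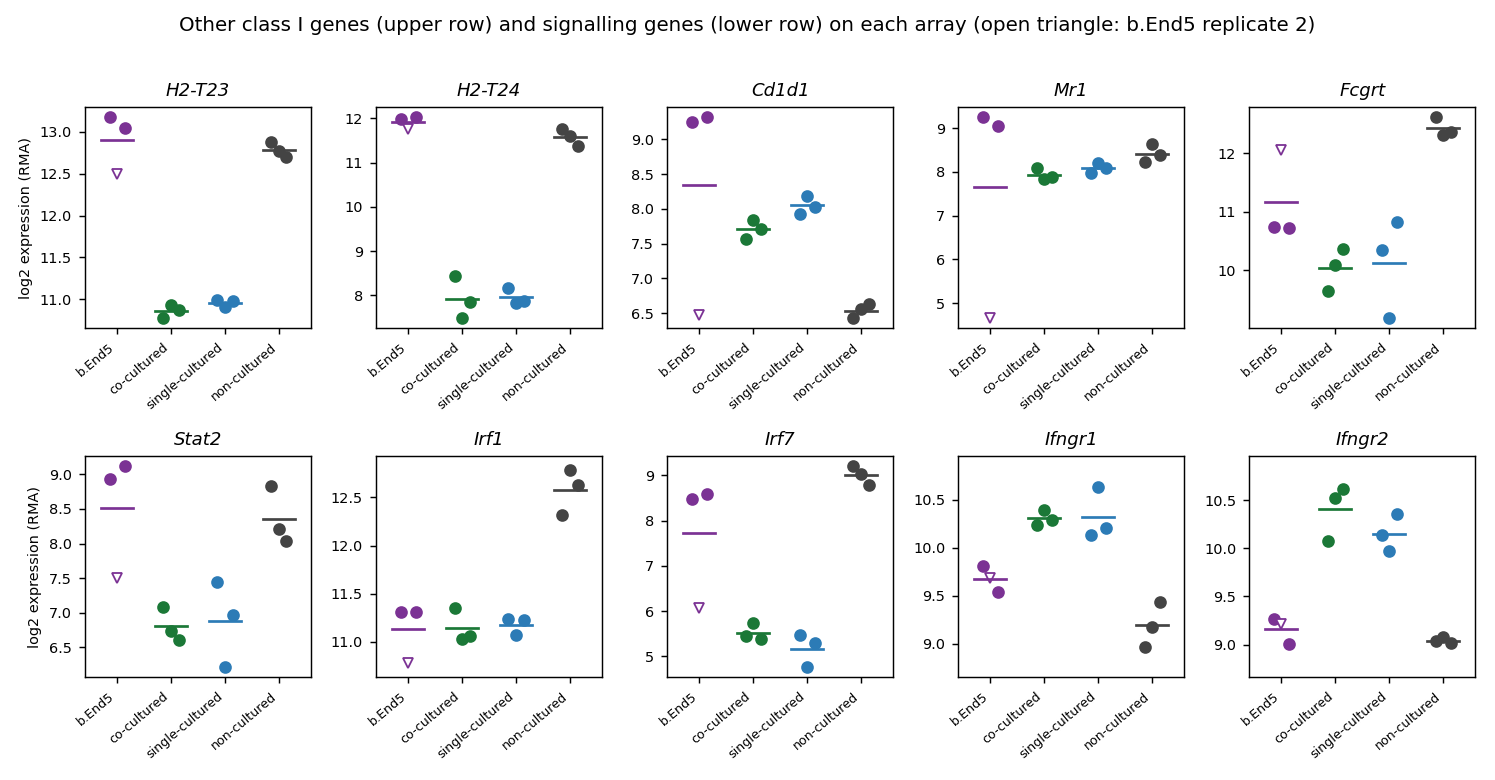
Log2 expression (RMA, vertical axis) of 5 other class I genes (upper row) and of 5 genes of interferon signalling (lower row) on each array, with lines at group means and an open triangle for b.End5 replicate 2. H2-T23 and H2-T24 are high in b.End5 and non-cultured cells and low in both primary cultures, while Ifngr1 and Ifngr2 are highest in the primary cultures.

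Of 15 measured genes of peptide loading and trimming, 0 were called in single culture and 1 in co-culture, where Erap1, the aminopeptidase that trims class I peptides, fell by 1.05 (SE 0.26, adjusted p = 0.00802). With no minimum fold, 7 of the 15 were higher and 4 lower in co-culture, where 18.7% of all genes were higher and 15.7% lower. In single culture 5 were higher and 2 lower (8 and 3 without b.End5 replicate 2), where 15.5% of all genes were higher and 12.8% lower. Tapbpl, a relative of tapasin that edits class I peptides, fell by 1.14 in b.End5 against non-cultured cells (SE 0.13, adjusted p = 3.11e-05). Calr, the chaperone calreticulin, was lower in b.End5 than in single-cultured cells by 1.05 (difference -1.05, SE 0.14, adjusted p = 0.000185).

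Upstream of the class I genes, 19 regulators were measured, of which 5 fell and 1 rose in each primary culture. Of all genes 5.82% fell and 7.18% rose in single culture, and 6.2% fell and 9.1% rose in co-culture. Irf1, the interferon-induced factor that acts on Tap1 and Psmb9, was at 11.35, 11.03 and 11.06 in co-cultured and 11.24, 11.07 and 11.22 in single-cultured cells, against 12.32, 12.79 and 12.63 in non-cultured cells. It fell in both (-1.43 and -1.40, SE 0.17, adjusted p = 5.95e-05 and 8.8e-05). In b.End5 Irf1 fell by 1.45 as well (SE 0.17, adjusted p = 3.77e-05). By the same rule 0 of the 10 class I pathway genes were called there, where 9.1% of all genes were called higher and 9.06% lower. A link between Irf1 and these genes was not tested. Irf7, a factor of the type I interferon response, fell in co-culture and single culture (-3.48 and -3.83, SE 0.52), as did Stat2, which transmits that response (-1.55 and -1.48, SE 0.41), its partner Irf9 and Socs3, an inhibitor of cytokine signalling (-1.79 and -2.68, SE 0.26). Against these cultures b.End5 had Irf7 higher by 2.19 and 2.54 and Stat2 by 1.71 and 1.64, with b.End5 replicate 2 at 6.08 for Irf7 against 8.48 and 8.59 on replicates 1 and 3. Without replicate 2 these differences were 3.01 and 3.36 for Irf7 and 2.21 and 2.14 for Stat2. Irf8, a factor also of macrophages, rose in co-culture and single culture (2.71 and 2.44, SE 0.45), where 6 of 11 microglia and macrophage markers rose, and by 1.79 in b.End5, where 5 of them fell and 1 rose. On b.End5 replicates 1, 2 and 3 Irf8 was at 7.68, 5.64 and 7.51, and without replicate 2 it was higher by 2.44. Rfx5, which binds the X box, did not pass in either culture (0.18 and 0.37, adjusted p = 0.456 and 0.136).

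Of 11 interferon receptor and ligand genes, 2 rose and 2 fell in co-culture, 3 rose and 1 fell in single culture, and 3 fell in b.End5, each against non-cultured cells. Among all genes 9.1% rose and 6.2% fell in co-culture, 7.18% rose and 5.82% fell in single culture, and 9.06% fell in b.End5. Both chains of the receptor for interferon-gamma rose in the cultures. Ifngr1, its ligand-binding chain, was at 10.23, 10.39 and 10.29 in co-cultured and 10.13, 10.63 and 10.21 in single-cultured cells, against 8.97, 9.17 and 9.44 in non-cultured cells. It rose by 1.11 and 1.13 (SE 0.16, adjusted p = 0.000225 and 0.000246), and the second chain Ifngr2 by 1.36 and 1.11 (SE 0.16, adjusted p = 3.97e-05 and 0.000229). On the same arrays Irf1 lay below every non-cultured value. So did 8 of the 10 class I pathway genes in single culture and all 10 in co-culture. Of all genes 21.2% and 25.4% did so. A link between the receptor chains and these genes was not tested. The kinase Jak1 rose by 1.18 in single culture (SE 0.10), while Tyk2, a kinase of the type I interferon receptor, fell by 1.07 in co-culture (SE 0.15). Il10rb, a chain of the interferon-lambda receptor, fell in co-culture and single culture (-1.55 and -1.78, SE 0.20) and in b.End5 (-1.02). In b.End5 the type I receptor chains Ifnar1 and Ifnar2 fell against non-cultured cells (-1.79 and -1.80, SE 0.14 and 0.12, adjusted p = 9.32e-07 and 2.55e-07).

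**Figure D5:**
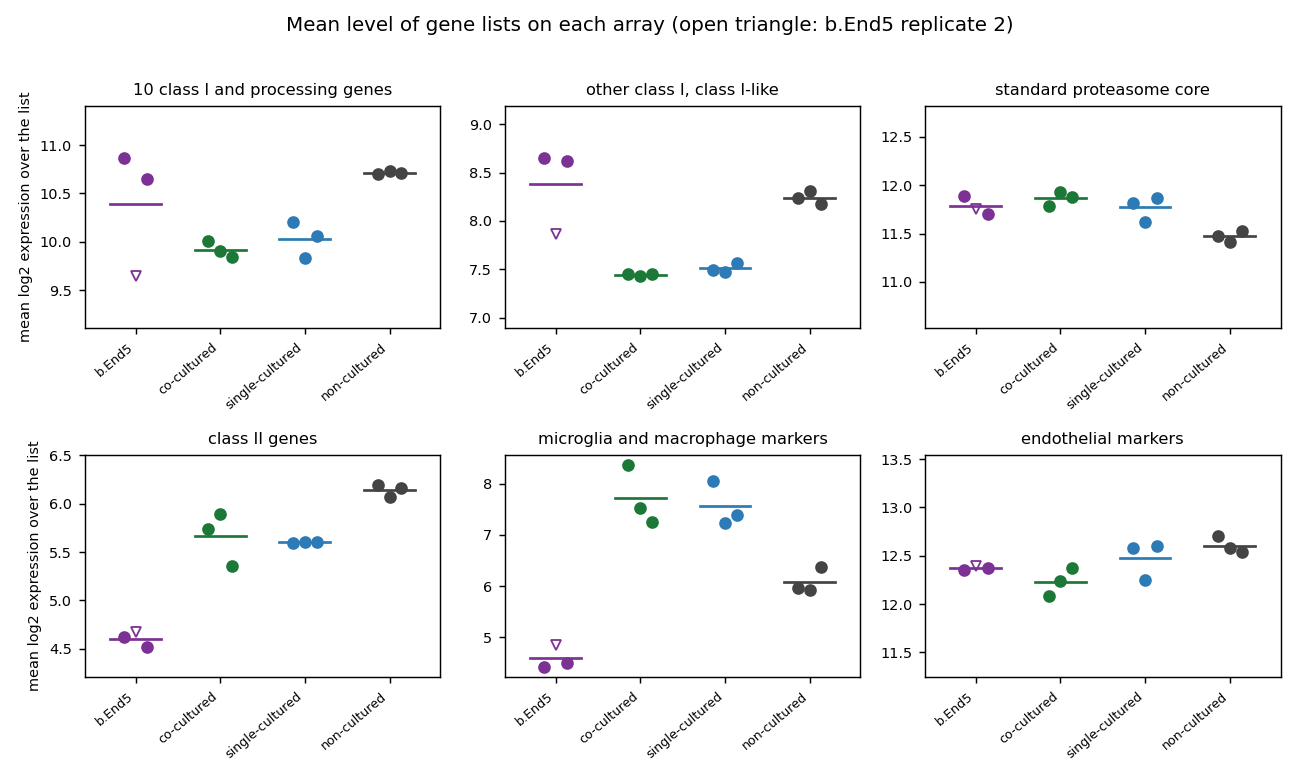
Mean log2 expression over each of 6 gene lists (vertical axis) on each array, with lines at group means and an open triangle for b.End5 replicate 2. The means of the 10 genes are 9.85 to 10.003 in co-cultured and 9.83 to 10.21 in single-cultured cells, below the 10.70 to 10.73 of non-cultured cells, while the standard proteasome core and the microglia and macrophage markers are higher in these cultures.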

How the data were processed

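The deposited table held 1 log2 value per probe set and array, which the authors had made with RMA, per the submitters' processing notes. RMA removes background, gives all arrays 1 distribution by quantile normalisation and combines the probes of a set, and it compresses log2 differences between low values. The RMA version, the array type and the grouping of probes are not given in the labels. Of 21625 probe sets 64 were Affymetrix controls. Symbols from the RefSeq table of GRCm38.p6 named 16537, and 15204 genes remained after taking, per gene, the probe set with the highest mean. No gene was filtered for low values. Where all arrays of a group lay at or under the no-target level, that level gives the bound of the fold.

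The tests used lmFit and eBayes of limma 3.58.1 (R 4.3.3) on 1 model of 4 group means over 12 arrays, with 8 residual degrees of freedom. Benjamini-Hochberg adjustment ran over 15204 genes. The calculation was tested on simulated data. SE is limma's standard error and SD the spread of 3 arrays, and so few arrays limit the precision. Tables and plots were made in Python 3.11.15 with pandas 2.3.3 and, for plots, matplotlib 3.10.9. The model did not use the replicate numbers. With the group means removed, same-numbered co-cultured and single-cultured arrays correlated at 0.227, 0.135 and 0.232. Same-numbered single-cultured and non-cultured arrays correlated at 0.180, 0.213 and -0.147. Arrays of different number were not compared, so these values cannot show a pairing, and the labels state none. Alternatives were other normalisations, filters, error models and fits of 2 groups, the replicate block, and each array left out.

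The 10 genes, 14 further lists, tests and the rule for named genes were chosen with earlier results of these data known, and no list was tested as a set. The rule named all 10 members, from each list and comparison the called genes of largest size whose arrays did not overlap, up to 2 that rose and 2 that fell, and, always, Psmb5, Psmb6, Psmb7, Irf1, Rfx5, Ifngr1 and Ifngr2. For likeness it took the 5 genes with the highest r. The values of Mr1, Cd1d1 and Irf9 and those of H2-T23 and Stat2 against non-cultured cells were chosen after their values were seen. Results of 2 listed genes are not reported here, and the lists are counted without them.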

Additional observations from a re-analysis of the deposited data

How the results depend on the processing

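Of 1260 values of members under alternatives, 1180 kept their direction and their side of the threshold. Of the others, 24 gained and 19 lost a call, the losses all by leaving out 1 array, and 37 changed sign. This threshold included the 2-fold minimum, which most members did not reach, except in the setting without it. Over the alternatives, the highest adjusted p (limma) in single culture was 0.0874 for H2-D1, 0.0612 for Tap1 and 0.146 for Psmb9. In co-culture it was 0.0653 for H2-D1, 0.0906 for Psmb10 and 0.126 for Psmb9. Tap2 stayed under 0.05 in both, Psmb10 in single culture and Tap1 in co-culture. No alternative gave a positive difference for a member in co-cultured against non-cultured cells, and leaving out 1 array was the one kind that gave any in single-cultured against non-cultured cells, for Tapbp (-0.22 to 0.0318). With no minimum fold, 4294 genes and 5 members were called in single-cultured, 5224 and 5 in co-cultured, and 5774 and 2 in b.End5, each against non-cultured cells. Co-cultured against single-cultured cells then had 383 genes and 0 members, and b.End5 had 4591 genes and 1 member against single-cultured and 4698 and 1 against co-cultured cells. When only the 2 groups compared were fitted, with or without the replicate block, 2 members were called in each culture against non-cultured cells, Psmb9 and Nlrc5, and those groups share only a number. For co-cultured against single-cultured cells, where the numbers may pair the arrays, the block changed the call of no member and gave 145 called genes against 155 without it and 181 as reported. Leaving out 1 array gave 0 to 2 members called in each culture against non-cultured cells, 0 to 3 in b.End5 against each primary culture, and 118 to 231 genes called in co-cultured against single-cultured cells, the lowest without single-cultured replicate 1. Psmb9 then ranged from an adjusted p of 0.0527 to 0.146 in the 10 fits that lost its call in single culture and from 0.0505 to 0.126 in the 9 for co-culture. The cause of these changes was not tested.

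The other sign changes, some with wide ranges, were as follows. In b.End5 against non-cultured cells, H2-D1 was at -0.063 with median centring, -0.0217 with centring on housekeeping genes and -0.0623 with cyclic loess, against 0.02 as reported, and B2m at -0.065, -0.0238 and -0.0556. Psmb9 in co-cultured against single-cultured cells was at -0.0391 with median centring. With 1 array left out, ranges in b.End5 against non-cultured cells were -0.0248 to 0.074 for H2-D1, -0.0722 to 0.17 for B2m, -0.26 to 0.0229 for Tapbp, -0.46 to 0.56 for Psmb8, -0.72 to 0.30 for Psmb9 and -1.60 to 0.45 for Nlrc5. In co-cultured against single-cultured cells they were -0.27 to 0.11 for H2-D1, -0.10 to 0.0161 for B2m, -0.15 to 0.15 for Psmb9 and -0.0048 to 0.27 for Psmb10. In b.End5 against single-cultured cells they were -0.35 to 0.25 for H2-K1, -0.18 to 0.14 for Tapbp, -0.0489 to 0.35 for Psmb10 and -0.15 to 1.90 for Nlrc5, and against co-cultured cells -0.17 to 0.22 for Psmb10. Another scaling moved the values of a group, as the median over all genes, by at most 0.077 log2 units. With median centring the shift was 0.0769 in non-cultured and -0.0725 in co-cultured cells. These are opposite directions, so the difference between these groups moved by more than either. With 3 arrays a group, many differences under 2-fold lay within the error. Background correction could not be varied on these deposited values.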

Other observations

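Class II genes present peptides to CD4+ T cells. Of 11 measured, 3 fell and 1 rose in co-culture, 5 fell and 1 rose in single culture, and 6 fell in b.End5, each against non-cultured cells, while 6.2%, 5.82% and 9.06% of all genes fell. The other class II genes were not called. H2-Aa, H2-Eb1 and H2-Ob are the 3 of co-culture, with H2-Ab1 and Cd74 added in single culture. H2-Aa, the alpha chain of the I-A molecule, was at 3.98, 4.11 and 4.03 in b.End5, under the no-target level, at 5.70, 6.30 and 5.22 in co-cultured and at 5.36, 5.15 and 5.77 in single-cultured cells, against 7.30, 6.79 and 7.42 in non-cultured cells. It was at least 7.42-fold lower in b.End5 and fell in co-culture and single culture (-1.43 and -1.75, limma, adjusted p = 0.00117 and 0.000351). Cathepsin S (Ctss), the protease that trims the class II invariant chain and is abundant in macrophages, rose by 2.18 in co-culture and by 2.10 in single culture and was at least 31.2-fold lower in b.End5 than in non-cultured cells. Of 11 microglia and macrophage markers 6 rose in each culture, while in b.End5 5 fell and 1, Tmem119, rose, and their part in the Ctss values was not tested. Of 5 lymphocyte markers, Cd3e, Cd8a and Nkg7 lay at or under the no-target level on all 12 arrays. Cd3g (4.41 to 5.25) and Cd4 (4.37 to 4.93) lay above it on all 12.

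On the array labelled b.End5 replicate 2, the CD1 lipid-presenting gene Cd1d1 was at 6.47, against 9.25 and 9.32 on b.End5 replicates 1 and 3, which is close to the 6.43, 6.55 and 6.62 of the non-cultured cells. For Cd1d1 and Mr1, as for Nlrc5, Psmb8 and Psmb9, a mean over the 3 b.End5 arrays describes none of them.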
